A study of Danio rerio with 6 samples.

Results

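The genes described here are the zebrafish genes of the Nrf2-Keap1 switch and of superoxide defence. They were chosen by gene symbol, as nfe2l2a, nfe2l2b, keap1a, keap1b, nqo1, sod1, sod2, cat and osgin1. Of these 9 names, 8 have a row in the table of 32057 genes, and 1, osgin1, has none. A row with the symbol osgn1, which the table describes as oxidative stress induced growth inhibitor 1, is given separately. Poly(A) RNA was sequenced from embryo heads dissected 2 days after fertilization. Treated embryos spent the time from 10 hours post-fertilization (hpf) in 6PPD at 500 µg/L, a protectant added to tire rubber, while controls spent it in the solvent DMSO. Both groups received the pigment inhibitor PTU (0.003% from 24 hpf) and each holds 3 replicates that the labels call biological, each pooled from 150 heads. No genotype or strain is named in the labels.

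The transcription factor Nrf2, encoded in zebrafish by the duplicated genes nfe2l2a and nfe2l2b, is held at a low level by Keap1, an adaptor that hands it to the Cul3 ubiquitin ligase. Oxidants and electrophiles modify cysteines of Keap1, Nrf2 then accumulates, pairs with small Maf proteins and binds antioxidant response elements of genes such as nqo1. This control acts largely on the protein, which RNA levels do not measure. Superoxide is turned into hydrogen peroxide by superoxide dismutases, in the cytosol by Sod1 and in mitochondria by Sod2, and catalase splits hydrogen peroxide in peroxisomes.

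Levels are in FPKM, which the authors computed by scaling fragments to the length of the gene and to the mapped fragments of the library. Both nfe2l2 genes measured lower FPKM in every 6PPD library than in every DMSO library, while keap1b and sod2 measured higher in every 6PPD library. The levels of keap1a, nqo1, sod1 and cat overlapped between the groups. None of the 8 genes was called by limma (Benjamini-Hochberg adjusted p under 0.05 over all tested genes), where 3.41% of 15320 tested genes were called (2.26% higher and 1.15% lower), and 4 of the 8 had an unadjusted p under 0.05, as had 20.3% of all tested genes. The gene nfe2l2b counts among these 4 although it passed the filter on low values only through the DMSO libraries. Groups did not overlap in 4 of the 8 genes, and in 26.3% of all tested genes. Of the 4, 2 lay higher and 2 lower in 6PPD, beside 17.1% and 9.18% of all tested genes. Among the lower genes is nfe2l2b, so this count too holds a gene that passed the filter only through the DMSO libraries. The 8 genes were chosen with earlier results of these data known, so these counts are no independent evidence of a change. The share of calls that were higher was 66.3%, and 45.5% after median-ratio scaling.

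The labels name the tissue as brain, and the treatment text names whole heads. Markers of neurons and neural progenitors were all above the filter, and skin, blood, muscle, lens and photoreceptor genes were measured too, while the liver gene fabp10a was at 0 in all libraries and 5 of 6 liver markers had a mean below 1 FPKM. DMSO replicate 3 stood apart on the liver list, with a summed 9.25 FPKM beside 0.638 to 1.54 FPKM in the other libraries, of which apoa2 gave 7.18 FPKM. Summed FPKM of 6 skin and periderm markers were 3159 to 5490 in DMSO and 2596 to 3024 in 6PPD, with 2 of 6 called, both lower, where 1.15% of all tested genes were called lower and 2.26% higher. Summed FPKM of 5 macrophage and neutrophil markers were 17.4 to 28.9 in DMSO and 14.3 to 17.3 in 6PPD, with 1 of 4 tested called lower, the lysozyme gene lyz. Without lyz, left out after its values were seen, the sums overlapped (8.29 to 12.3 FPKM in DMSO and 7.72 to 9.32 FPKM in 6PPD). The other tested genes were mpx, lcp1 and the macrophage gene mpeg1.1, with log2 fold changes of -0.40, -0.20 and 0.08. Of these, mpx measured lower in every 6PPD library than in every DMSO library (limma adjusted p = 0.267), and the groups of lcp1 and mpeg1.1 overlapped. Summed FPKM of 4 photoreceptor markers were 225 to 318 in DMSO and 181 to 208 in 6PPD, with 2 called lower, rho and opn1sw1. The mean of opn1sw1 in 6PPD was below 1 FPKM. It passed the filter on low values only through the DMSO libraries, so its call supports no difference. Among 7 neuronal and progenitor markers 2 were called higher, elavl3 and snap25a (log2 fold changes 0.64 and 0.40). The genes gfap (-0.50) and fabp7a (-0.33) were lower in every 6PPD library than in every DMSO library. Those of elavl4 (-0.34), stmn2a (0.19) and sox2 (0.14) overlapped, and none of these was called. The sum of the 7, most of it from the progenitor gene fabp7a, was 1429 to 1652 in DMSO and 1239 to 1338 in 6PPD. Without fabp7a, left out in the same way, the other 6 summed to 306 to 338 in DMSO and 346 to 369.6 in 6PPD. The part of these tissues in the values below was not tested, and in pooled heads fewer cells of a type and less RNA per cell cannot be told apart. On the first principal component (43.5% of the variance), DMSO replicate 3 lay at -4.7, between the other DMSO libraries (-22.8 and -20.6) and the 6PPD libraries (15.3 to 16.9).

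In DMSO heads the dismutases stood highest and the Nrf2 genes low in the order of levels. The mean FPKM descended from sod1 (73.1) through sod2 (23.9), nqo1 (14.3), cat (12.1), keap1b (10.6), nfe2l2a (8.20) and keap1a (4.61) to nfe2l2b (1.31). The ranges of neighbours in this order overlapped between nqo1 and cat only. In 6PPD heads keap1b (12.6), nqo1 (12.1) and cat (12) could not be ordered beyond their spread, and the other neighbours stayed apart. Of these, nfe2l2a and keap1a almost met, with a lowest nfe2l2a library of 5.256 FPKM and a highest keap1a library of 5.250 FPKM. Among the genes tested, sod1 stood at the 94.5th percentile of mean level and nfe2l2a at the 51.4th. The gene nfe2l2b stood at the 0.0457th percentile, just inside the filter of a mean of 1 FPKM. It passed through the DMSO libraries, with a mean of 1.00 FPKM over the 6 libraries. Spread between replicates, as the coefficient of variation in DMSO, ran from 2.78% (keap1a) to 16.6% (nqo1).

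**Figure D1:**
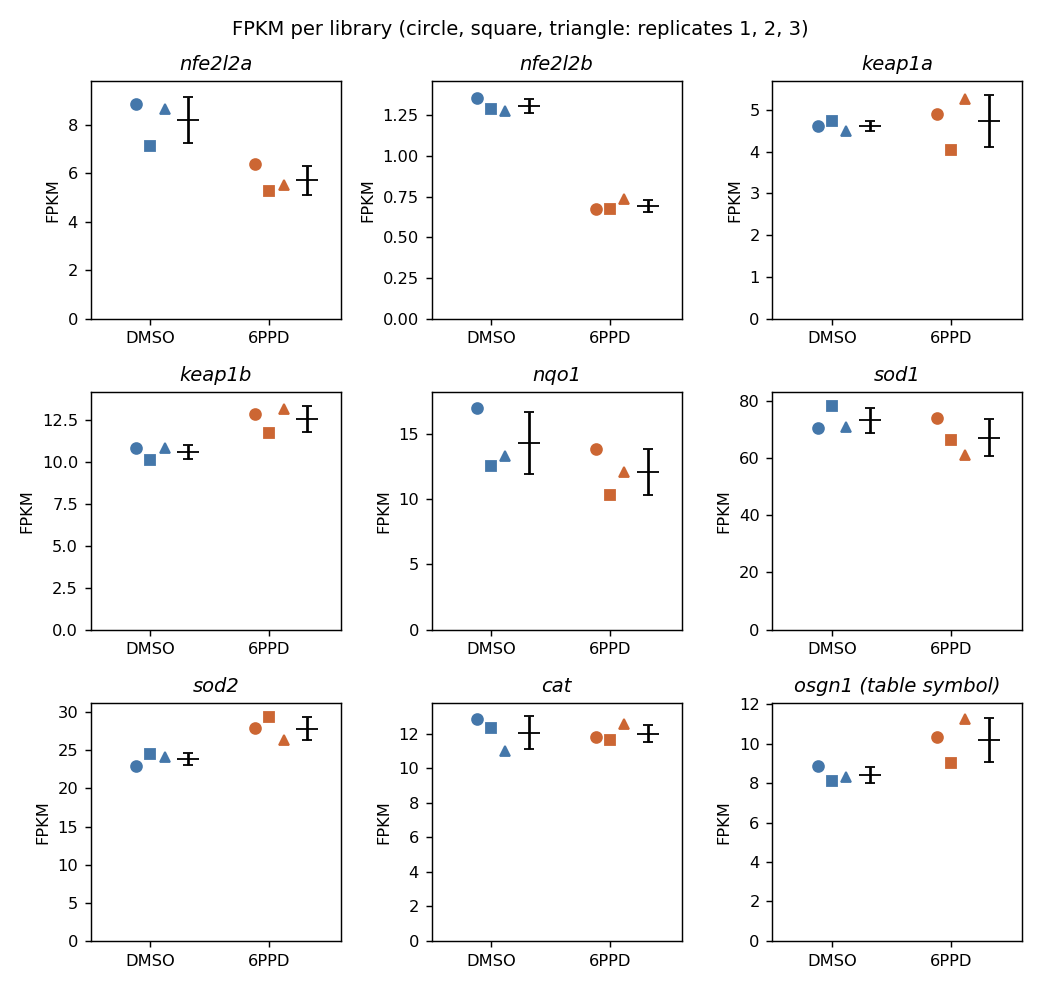
FPKM of the 8 genes and of osgn1 in each DMSO and 6PPD library, with the mean and SD of 3 libraries beside the points and axes that start at 0. All 6PPD points of nfe2l2a and nfe2l2b lie below the DMSO points, and all those of keap1b, sod2 and osgn1 above them.

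The factor gene nfe2l2a (ENSDARG00000042824, GRCz11, chromosome 9, 1654284 to 1683368, plus strand) encodes the main Nrf2 of zebrafish. It measured 8.84, 7.13 and 8.63 FPKM in DMSO replicates 1 to 3 and 6.38, 5.26 and 5.50 FPKM in 6PPD replicates 1 to 3. The lowest DMSO library stayed above the highest 6PPD library, and DMSO replicate 3 was close to DMSO replicate 1. The mean was 8.20 ± 0.935 FPKM (SD, n = 3) in DMSO and 5.71 ± 0.591 FPKM (SD, n = 3) in 6PPD, a mean level 0.696 times that of DMSO. The log2 fold change, on the scale of log2(FPKM + 1) that understates changes of low genes, was -0.45 ± 0.12 (SE) with a 95% interval from -0.72 to -0.19. The limma adjusted p was 0.0746, above the threshold. Of all tested genes, 2.42% had a log2 fold change this low or lower. The gene passed the threshold under 4 of 17 alternative settings, with limma adjusted p = 0.0335 under quantile normalization, 0.0346 under median-ratio scaling, 0.0339 under cyclic loess and 0.03 with a gene length trend removed. Under these 4 settings 3.59%, 2.92%, 3.38% and 3.41% of all tested genes were called. The limma adjusted p was 0.12 in TPM and 0.156 with no filter. With 1 library left out, it was 0.0801 to 0.215.

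The paralog nfe2l2b (ENSDARG00000089697, GRCz11, chromosome 6, 10888798 to 10902916, minus strand) encodes a second Nrf2, described in zebrafish as a repressor of some Nrf2 targets. It measured 1.36, 1.29 and 1.28 FPKM in the DMSO libraries and 0.673, 0.674 and 0.738 FPKM in the 6PPD libraries. The values within each group lay close together and the groups were far apart relative to that spread. The means were 1.31 ± 0.0425 FPKM (SD, n = 3) in DMSO and 0.695 ± 0.037 FPKM (SD, n = 3) in 6PPD, a ratio of means of 0.531. The log2 fold change of FPKM + 1 was -0.45 ± 0.13 (SE; 95% interval -0.73 to -0.16), with limma adjusted p = 0.0917. With a pseudocount of 0.1 the log2 fold change was -0.83, with adjusted p = 0.096. The residual SD of the gene was 0.029 on the log2 scale, which was lower than in all but 0.503% of tested genes, and limma moderates such an SD towards that of genes of like level. The adjusted p was 0.0428 in limma without the intensity trend and 0.0495 under quantile normalization, where 2.19% and 3.59% of all tested genes were called. With no filter it was 0.101. Since the gene passed the filter only through the DMSO libraries, where it was high, its filtered p-values are a description and support no difference. The read depth is not known, so no counting error can be given for so low a level.

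**Figure D2:**
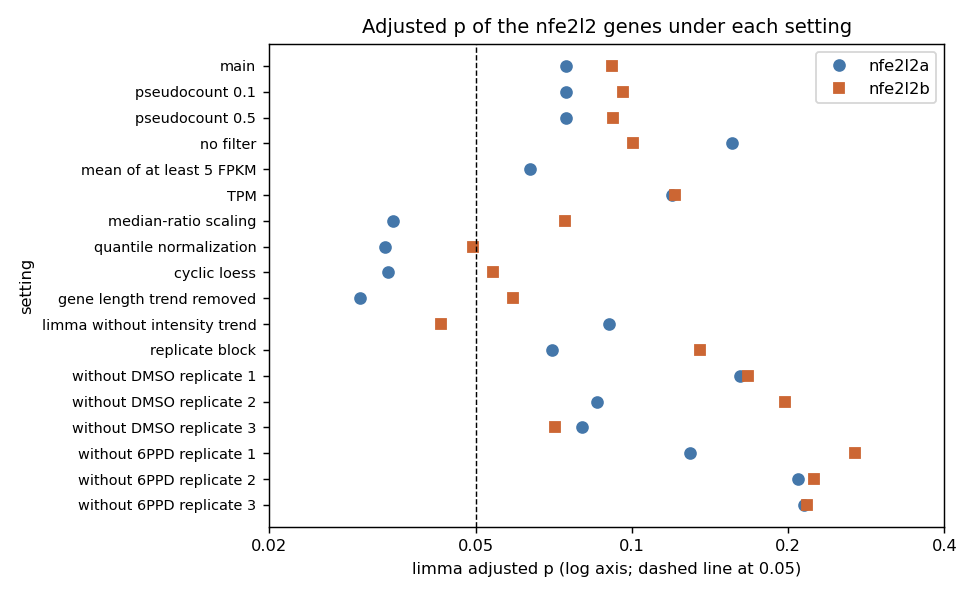
Adjusted p of limma for nfe2l2a (circles) and nfe2l2b (squares) under the setting of the text and each alternative, on a log axis with a dashed line at 0.05. The circles pass the line under 4 settings that rescale the libraries or remove a length trend, but not in TPM. The squares pass it under quantile normalization and without the intensity trend. With a mean of at least 5 FPKM nfe2l2b was not tested.

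Neither Keap1 gene was called, and the groups were apart for keap1b and overlapped for keap1a. The gene keap1b (ENSDARG00000074634, GRCz11, chromosome 6, 131998 to 138603, minus strand) measured 10.9, 10.1 and 10.8 FPKM in DMSO and 12.9, 11.7 and 13.2 FPKM in 6PPD. Every 6PPD library lay above every DMSO library. The means were 10.6 ± 0.402 and 12.6 ± 0.757 FPKM (SD, n = 3 per group), with a log2 fold change of 0.23 ± 0.09 (SE; 95% interval 0.02 to 0.43) and limma adjusted p = 0.198. A log2 fold change this high or higher was found in 21.6% of all tested genes. For keap1b it was 0.15 after median-ratio scaling (limma adjusted p = 0.391). Its paralog keap1a (ENSDARG00000016132, GRCz11, chromosome 2, 41835025 to 41861040, minus strand) measured 4.61, 4.74 and 4.49 FPKM in DMSO and 4.91, 4.04 and 5.25 FPKM in 6PPD. The 6PPD libraries spread to both sides of the DMSO libraries. The log2 fold change of keap1a was 0.02 ± 0.12 (SE; 95% interval -0.24 to 0.29, limma adjusted p = 0.922), and its sign turned under 3 scalings, after removal of the length trend and without 6PPD replicate 3.

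The classical Nrf2 target nqo1 (ENSDARG00000010250, GRCz11, chromosome 7, 56703254 to 56722320, plus strand) encodes a quinone reductase. It measured 17, 12.5 and 13.3 FPKM in DMSO and 13.9, 10.4 and 12.1 FPKM in 6PPD. Replicate 1 was the highest library of each group and the groups overlapped. For nqo1 the log2 fold change was -0.22 ± 0.14 (SE; 95% interval -0.53 to 0.08), with limma adjusted p = 0.384, and was -0.10 without DMSO replicate 1. The row osgn1 (ENSDARG00000052279, GRCz11, chromosome 6, 50695381 to 50704689, minus strand) measured 8.86, 8.10 and 8.29 FPKM in DMSO and 10.3, 9.01 and 11.2 FPKM in 6PPD, with no overlap. Its log2 fold change was 0.24 ± 0.11 (SE; 95% interval 0.01 to 0.48, limma adjusted p = 0.232). The related gene osgin2 had too low a level for the test, with 0.288 ± 0.0516 FPKM in controls against 0.449 ± 0.117 FPKM after exposure (SD, n = 3 per group).

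The dismutase genes had log2 fold changes of opposite sign, and neither was called. The mitochondrial enzyme gene sod2 (ENSDARG00000042644, GRCz11, chromosome 20, 30937934 to 30947547, plus strand) measured 23, 24.5 and 24.1 FPKM in DMSO and 27.9, 29.3 and 26.3 FPKM in 6PPD. All 6PPD libraries lay above all DMSO libraries. Its log2 fold change was 0.21 ± 0.08 (SE; 95% interval 0.03 to 0.39), with limma adjusted p = 0.175, and ranged from 0.13 to 0.27 over 17 alternative settings without a call. The cytosolic copper-zinc enzyme gene sod1 (ENSDARG00000043848, GRCz11, chromosome 10, 25694395 to 25699454, minus strand) measured 70.5, 78.1 and 70.7 FPKM in DMSO and 73.9, 66.2 and 61 FPKM in 6PPD. The 6PPD replicate 1 library lay among the DMSO libraries and the other 2 below them. On the log2 scale the change was -0.13 ± 0.09 (SE; 95% interval -0.33 to 0.08, limma adjusted p = 0.459), and was -0.06 without 6PPD replicate 3 and -0.20 without 6PPD replicate 1. The annotation of sod1 overlaps scaf4a by 1819 bases on the same strand, that of sod2 overlaps wtap by 313 bases on the opposite strand, and that of cat overlaps ifitm5 by 241 bases on the same strand. Whether the counting used strand is not given in these sources, and fragments of these stretches may belong to either gene. The other 5 genes overlap no annotated gene of the table.

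The catalase gene cat (ENSDARG00000104702, GRCz11, chromosome 25, 7492663 to 7504554, plus strand) measured 12.9, 12.3 and 11 FPKM in DMSO and 11.8, 11.6 and 12.6 FPKM in 6PPD. The libraries of both groups were interleaved. Its log2 fold change was -0.00 ± 0.09 (SE; 95% interval -0.21 to 0.21, limma adjusted p = 0.986). This interval allows a change of up to 0.21 in either direction, and the sign turned under 5 alternative settings.

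**Figure D3:**
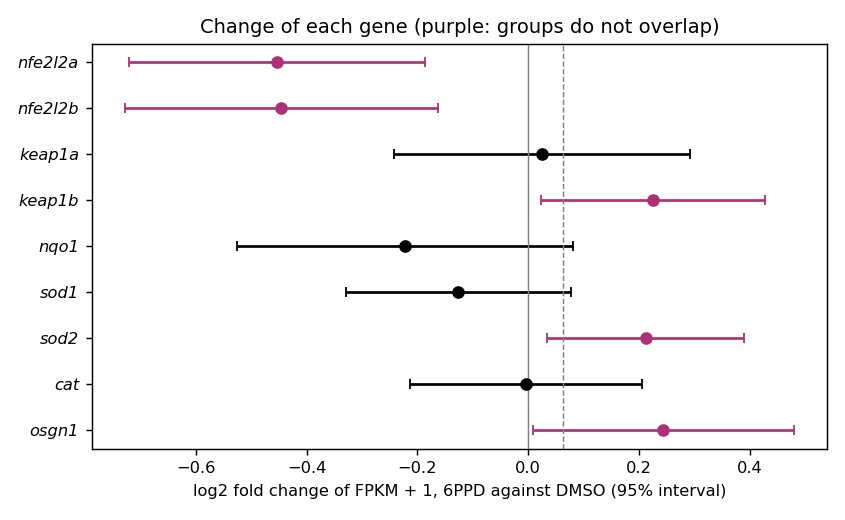
Log2 fold change of FPKM + 1 with its 95% interval for each gene, 6PPD against DMSO, with a solid line at 0 and a dashed line at the median of all tested genes (0.06). The intervals of both nfe2l2 genes lie below 0, those of keap1b, sod2 and osgn1 above 0, and those of keap1a, nqo1, sod1 and cat span it; these intervals are not adjusted for the number of genes.

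Ratios of partner genes within a library do not depend on a scaling factor of the whole library. The ratio of nfe2l2a to nfe2l2b was 6.52, 5.53 and 6.75 in DMSO and 9.48, 7.80 and 7.45 in 6PPD. The ratio of keap1b to keap1a was 2.36, 2.14 and 2.41 in DMSO and 2.62, 2.90 and 2.51 in 6PPD. The ratio of sod1 to sod2 was 3.07, 3.18 and 2.94 in DMSO and 2.65, 2.26 and 2.32 in 6PPD. For all 3 ratios the groups did not overlap, with the first 2 higher and the last lower in 6PPD. The mean ratio was 6.27 ± 0.649 in DMSO and 8.24 ± 1.08 in 6PPD for the nfe2l2 pair, 2.30 ± 0.144 and 2.68 ± 0.202 for the keap1 pair and 3.06 ± 0.123 and 2.41 ± 0.212 for the dismutases (SD, n = 3 per group). The two-sided exact permutation test gave p = 0.1 for each ratio and an adjusted p of 0.1 over the 3, the smallest value that 3 against 3 libraries allow, so no ratio could pass the threshold. For the nfe2l2 pair the log2 change of the ratio was 0.39, and 0.05 after quantile normalization of log2(FPKM + 1) (two-sided exact permutation p = 0.7), where the pseudocount compresses nfe2l2b. On log2(FPKM + 1) without that normalization the direction was opposite, with changes of -0.454 for nfe2l2a and -0.446 for nfe2l2b. Since nfe2l2b passed the filter only through the DMSO libraries, the ratio of this pair is a description and supports no difference.

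**Figure D4:**
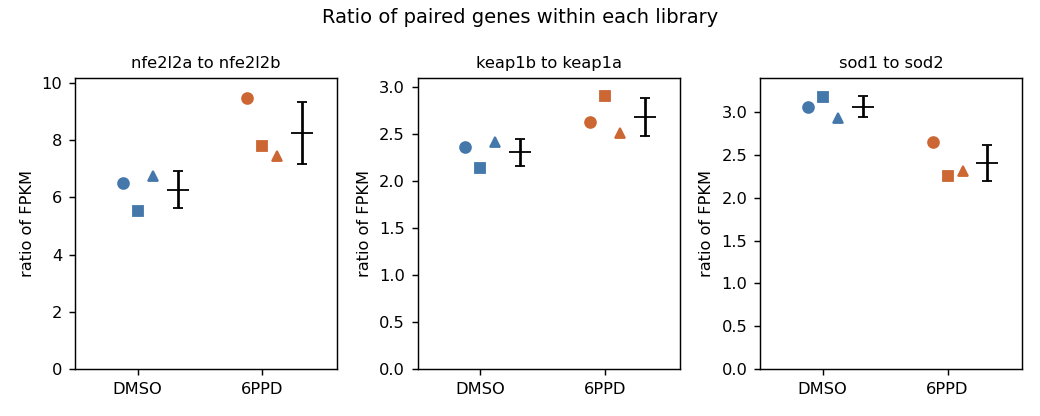
Ratio of FPKM of paired genes in each library, with the mean and SD of 3 libraries per group and axes that start at 0. The nfe2l2a to nfe2l2b and keap1b to keap1a ratios are higher in all 6PPD libraries, and the sod1 to sod2 ratio is lower in all of them.

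Most other Nrf2 targets were not called, and the 5 that were all rose. Of 45 names in a list of other Nrf2 targets, 41 had a row, 37 were tested and 5 were called higher, beside 2.26% of all tested genes. The median was 0.02 on the log2 scale (0.06 over all genes). In this list 12 had an unadjusted p under 0.05, beside 20.3% of all tested genes. Among them esd, tkta, trim16 and akr1b1.1, named after their values were seen, had negative log2 fold changes. Groups were apart and higher in 6PPD for 8 genes and lower for 4, beside 17.1% and 9.18% of all tested genes. The list was made with earlier results of these data known, so these counts are no independent evidence of direction. The glutathione transferase gene gstp1 measured 435, 393 and 355 FPKM in DMSO and 756, 623 and 658 FPKM in 6PPD. The 6PPD libraries all lay above the DMSO libraries, with a log2 fold change of 0.78 ± 0.11 (SE) and limma adjusted p = 0.00836. The paralog gstp2, named after its values were seen, measured 1.45, 2.17 and 0.929 FPKM in DMSO and 3.85, 2.48 and 2.41 FPKM in 6PPD. Its log2 fold change was 0.65 (limma adjusted p = 0.124). How the counting divided fragments that match both copies is not known.

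The peroxiredoxin gene prdx1 measured 21, 25.5 and 30.7 FPKM in DMSO and 50.8, 39.6 and 45 FPKM in 6PPD, and the electron donor of that enzyme, thioredoxin (txn), measured 13.9, 17.1 and 17.4 FPKM in DMSO and 28.6, 28.8 and 21.7 FPKM in 6PPD. Their groups did not overlap, and their log2 fold changes were 0.80 and 0.67 (limma adjusted p = 0.0167 and 0.0257). Biliverdin reductase B (blvrb) measured 7.82, 7.84 and 7.40 FPKM in DMSO and 13.2, 13.4 and 10.6 FPKM in 6PPD, and the glucuronosyltransferase gene ugt1a1 1.22, 1.54 and 1.22 FPKM in DMSO and 3.42, 2.35 and 3.16 FPKM in 6PPD. They had log2 fold changes of 0.62 and 0.77 (limma adjusted p = 0.0184 and 0.0253). With 1 library left out, gstp1 was called in all 6 fits, prdx1 and blvrb in 3 and ugt1a1 and txn in 2. The libraries whose removal took the call of prdx1 were DMSO replicate 2 and 6PPD replicates 1 and 3, and for blvrb DMSO replicate 2 and 6PPD replicates 1 and 2. For ugt1a1 they were DMSO replicates 1 and 2 and 6PPD replicates 1 and 3, and for txn DMSO replicates 1 and 2 and 6PPD replicates 1 and 2. The call of txn was also lost without the intensity trend (limma adjusted p = 0.055) and that of ugt1a1 with the replicate number as a block (limma adjusted p = 0.0503). With no filter on low values all 5 lost the call, with limma adjusted p from 0.071 (gstp1) to 0.12 (txn).

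Several well-known targets, named here after their values were seen, were not called. The modifier subunit gene of glutathione synthesis, gclm, measured 15.5, 16.7 and 15.3 FPKM in DMSO and 13.5, 14.8 and 14.3 FPKM in 6PPD, with a log2 fold change of -0.15 and limma adjusted p = 0.343. For the catalytic subunit gene gclc the log2 fold change was -0.06 (limma adjusted p = 0.718), the sulfiredoxin gene srxn1 0.17 (0.544) and the heme oxygenase gene hmox1a -0.01 (0.977). Other targets without a call, named in the same way, had higher means in 6PPD. The log2 fold change of gsr was 0.56, with overlapping groups (limma adjusted p = 0.143). That of cbr1l was 0.39, with groups apart (limma adjusted p = 0.0818). The gene me1 lay below the filter, with 0.52, 0.43 and 0.632 FPKM in DMSO and 1.498, 1.17 and 0.754 FPKM in 6PPD. The genes esd, tkta, trim16 and akr1b1.1, named above, went the other way.

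None of 26 tested Nrf2 control and partner genes was called by limma, and 5 had an unadjusted p under 0.05, where 20.3% of all tested genes had one. Their median log2 fold change was 0.14, beside 0.06 for all tested genes. The CNC family gene nfe2l3, a relative of Nrf2, had the smallest p, with 16, 16.8 and 19.5 FPKM in DMSO and 22.7, 21.7 and 25.8 FPKM in 6PPD. Its groups did not overlap, and its log2 fold change was 0.40 ± 0.10 (SE, limma adjusted p = 0.0675, and 0.0306 without DMSO replicate 3 and 0.0485 with the replicate number as a block). The large Maf gene mafbb is in the list, although the Maf partners of Nrf2 named above are small Maf proteins. It stood at -0.47 ± 0.12 on the log2 scale (SE, limma adjusted p = 0.0741), and was called under 4 scalings or trend removals. The Cul3 genes cul3a and cul3b, which build the ligase that takes Nrf2 from Keap1, had log2 fold changes of -0.03 and 0.13 (limma adjusted p = 0.853 and 0.484; named after their values were seen).

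None of 9 tested superoxide producing enzymes and partners was called by limma, none had an unadjusted p under 0.05, and 8 of the 17 rows lay below the filter. The oxidases aox5 and xdh had the smallest p, with log2 fold changes of -0.55 ± 0.28 and -0.46 ± 0.25 (SE; limma adjusted p = 0.304 and 0.326). 6PPD replicate 2 was the lowest library in both, at 4.37 FPKM for aox5 and 0.499 FPKM for xdh, and without it their log2 fold changes were -0.16 and -0.15.

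In the list of metal supply to the dismutases and of extracellular dismutases, the 7 tested genes were all of metal supply. None of the 7 was called, and none had an unadjusted p under 0.05. The copper importer gene slc31a1 and the copper chaperone gene atox1 had log2 fold changes of 0.37 ± 0.18 and 0.18 ± 0.08 (SE; limma adjusted p = 0.275 and 0.276). That of slc31a1 was 0.21 without DMSO replicate 1 and 0.55 without DMSO replicate 3 (limma adjusted p = 0.0605). The extracellular dismutase genes sod3a and sod3b lay below the filter, sod3a at 0 in DMSO replicates 1 and 2 and in 6PPD replicate 3. The list of peroxide removing enzymes also holds the peroxisome genes pex5, pex5lb and pex14. It leaves out prdx1, which was listed with the other Nrf2 targets and called higher. Of its 16 tested genes none was called by limma and 2 had an unadjusted p under 0.05, beside 20.3% of all tested genes. These were the mitochondrial peroxiredoxin gene prdx3 (log2 fold change -0.25 ± 0.09, SE, limma adjusted p = 0.154, and 0.0393 without DMSO replicate 3) and the glutathione peroxidase gene gpx1a (log2 fold change 0.29 ± 0.10, SE, limma adjusted p = 0.155). Without DMSO replicate 3 the log2 fold change of gpx1a was 0.19.

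**Figure D5:**
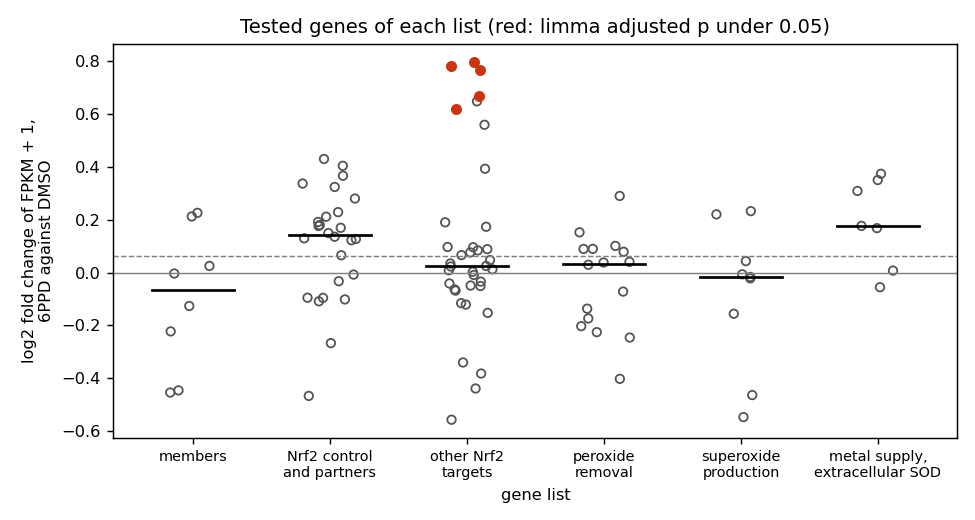
Log2 fold change of FPKM + 1 of every tested gene, 6PPD against DMSO, in the 8 genes described and in 5 pathway lists, with the median as a bar, a solid line at 0 and a dashed line at the median of all tested genes. Filled red points passed the limma threshold, and all 5 of them lie in the list of other Nrf2 targets, above 0.

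The genes whose levels followed the nfe2l2 genes most closely were ranked by Pearson correlation of log2(FPKM + 1) over the 6 libraries, among tested genes with a symbol. For nfe2l2a these were tmem94 (0.993), the peroxisomal reductase gene pecr (0.988) and the RNA helicase gene ddx39b (0.986), and for nfe2l2b the inositol phosphatase gene impa1 (0.999), the mitochondrial tRNA synthetase gene iars2 (0.996) and the actin nucleation gene arpc1a (0.994). All 6 measured lower mean levels in 6PPD, and none was called, with limma adjusted p from 0.137 to 0.291. The 6 libraries form groups, so these values describe the same shift between groups, and 60 genes for nfe2l2a and 127 for nfe2l2b reached at least 0.95. Like nfe2l2b, tmem94 (1.00, 0.782 and 0.754 FPKM in 6PPD) passed the filter only through the DMSO libraries, so its lower level supports no difference.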

How the data were processed

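The deposited table gives FPKM per gene and library, computed by the authors. The build GRCz11 and the tools HISAT2, StringTie, featureCounts and fastp appear in the submitters' processing notes, without versions or roles. Gene lengths are those of the deposited table. Low FPKM values were searched for steps of 1 fragment. The best step made 26.0% to 29.6% of values whole within 0.1 step, where any step gives 20%, so no counts were recovered, no count model was used and the depth is unknown. The FPKM summed to 434258 to 472121 per library.

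All genes whose mean over the 6 libraries reached 1 FPKM entered the fit, limma 3.58.1 (R 4.3.3, intensity trend) on log2(FPKM + 1), 6PPD against DMSO, with Benjamini-Hochberg adjustment over all genes and a threshold of 0.05. The same genes were kept under every scaling and left-out library. Libraries were grouped by the treatment in their labels. Ratios were tested by exact permutation. The labels do not say whether replicates came from separate spawnings, so p-values set group differences against the spread between these libraries only. In limma that spread is moderated towards that of genes of like level. The procedure was tested on simulated data. The members and lists were chosen with earlier results of these data known.

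Named are all members, up to 6 called genes of each list (by p) or the 2 of smallest p where none was called, and the 3 genes most like nfe2l2a and like the 2 members of smallest p. Other genes of the lists were chosen after their values were seen, which is said for most of them. The gene name table held all 8 member IDs, 6 with the same symbol apart from case, and symbols are those of the deposited table. Alternatives were other pseudocounts (0.1, 0.5), filters (none, 5 FPKM), scalings, removal of a length trend, no intensity trend, a replicate block and each library left out.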

Additional observations from a re-analysis of the deposited data

How the results depend on the processing

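The number of genes called (522) was 26 with no filter, 335 without the intensity trend, and 170 to 1134 with 1 library left out, being highest without DMSO replicate 3 and lowest without DMSO replicate 2 or 6PPD replicate 3. The share of calls that were higher ran from 45.5% (median-ratio scaling) to 75.1% (TPM). Of the 8 genes, none was called with 1 library left out, 1 was called after median-ratio scaling, cyclic loess and removal of the length trend (nfe2l2a) and without the intensity trend (nfe2l2b), and 2 after quantile normalization. The calls of nfe2l2b support no difference, since it passed the filter only through the DMSO libraries. Of the Nrf2 control and partner genes, only mafbb was called under cyclic loess, quantile normalization, median-ratio scaling and with the length trend removed. Only nfe2l3 was called with the replicate block, and 0 to 2 genes with 1 library left out. Of the other Nrf2 targets 0 were called with no filter and 1 to 6 with 1 library left out. In the list of peroxide removing enzymes, which leaves out prdx1, 0 to 1 were called with 1 library left out. The log2 fold change of keap1a was -0.0606 under cyclic loess, -0.0522 under quantile normalization, -0.0435 under median-ratio scaling, -0.0341 with the length trend removed and -0.0403 (without 6PPD replicate 3) to 0.114 (without 6PPD replicate 2) with 1 library left out. That of cat was 0.0451 in TPM and -0.0634 (without DMSO replicate 3) to 0.0404 (without DMSO replicate 1) with 1 library left out, and above 0 in 4 of these 6 fits. The causes were not tested. The other 6 genes kept their sign under every alternative run. The 3 ratios kept theirs under quantile normalization, the replicate block and each library left out, the only alternatives run for them. With a pseudocount of 1 the nfe2l2a and nfe2l2b log2 fold changes were -0.454 and -0.446. On that scale nfe2l2a fell slightly more than nfe2l2b, so the size and the direction of that pair's ratio change depend on the pseudocount.

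Deviations of same-numbered libraries correlated at 0.03, 0.18 and -0.03, and those of differently numbered libraries at -0.18 to 0.17. With 3 libraries per group these values cannot settle whether the replicate numbers pair the libraries, and the labels state no pairing. With the replicate block 455 genes, 0 of the 8 and 4 of the other Nrf2 targets were called, and the ratio tests gave p = 0.25, the smallest that 3 pairs allow in an exact permutation test. Depth is unknown, so the error of low levels, such as that of nfe2l2b, cannot be split into counting and biological parts.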

Other observations

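A sum chosen after the values were seen sets the Keap1 genes against the Nrf2 genes within each library. The summed FPKM of keap1a and keap1b divided by that of nfe2l2a and nfe2l2b was 1.52, 1.77 and 1.54 in DMSO and 2.52, 2.66 and 2.95 in 6PPD, without overlap. The mean was 1.61 ± 0.138 in DMSO and 2.71 ± 0.222 in 6PPD (SD, n = 3 per group), with p = 0.1 in the two-sided exact permutation test, the smallest that 3 against 3 libraries allow. The groups of keap1b and of both nfe2l2 genes had already been seen apart, so this p-value is a description and supports no difference. The sum also holds nfe2l2b, which passed the filter only through the DMSO libraries.

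The CNC relative nfe2l1b, a regulator of proteasome genes in mammals, measured 4.12, 3.84 and 4.25 FPKM in DMSO and 5.81, 5.25 and 6.46 FPKM in 6PPD. Its log2 fold change was 0.43 ± 0.11 (SE, limma adjusted p = 0.0786), opposite in sign to those of the nfe2l2 genes, as was that of nfe2l3. It was chosen after its values were seen. The pentose phosphate gene tkta, also chosen in that way, had a log2 fold change of -0.44 ± 0.12 (SE, limma adjusted p = 0.0861), with 11, 11.6 and 15.2 FPKM in DMSO and 8.96, 9.10 and 8.73 FPKM in 6PPD, while its paralog tktb was at 0.00 (limma adjusted p = 0.989).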
